A study of Danio rerio with 170 samples.

Results

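Fluoranthene and 3-nitrofluoranthene (3-NF) share one ring system, naphthalene and benzene units joined through a further carbon ring, and differ by a nitro group that 3-NF carries. They were chosen by their chemical label, with earlier results of these data known. Their members are 8 of the 170 samples in the data, 4 exposed to Fluoranthene at 50 µM and 4 exposed to 3-NF at 1.9 µM. All were whole Tropical 5D wild-type zebrafish embryos, left to develop to 48 h post fertilization (hpf), and polyA-selected RNA was sequenced. Fluoranthene was compared with the control group DMSO_A (3 libraries, replicates 2, 3 and 4) and 3-NF with DMSO_B (4 libraries), and both control groups were at 1% DMSO and received no test compound. Concentrations came from an earlier screen of embryo phenotypes, and 50 µM was the highest that screen used for compounds of this class. Because the concentrations differ, the values of Fluoranthene and 3-NF are given side by side and the compounds are not compared with each other. Each was instead compared with the compounds that were tested at its own concentration, which were benzo[b]fluoranthene (BbF, 3 libraries), phenanthrene (4) and acenaphthene (4) at 50 µM, and benzo[k]fluoranthene (BkF, 4) at 1.9 µM. The labels do not say that replicates are separate clutches or exposures, so p-values measure only the spread between libraries, which may be technical. For these comparisons that spread was estimated over 70 libraries in 18 groups, which include the groups compared.

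Aromatic compounds with several fused rings can bind the aryl hydrocarbon receptor (AHR), a ligand-activated transcription factor that pairs with ARNT and switches on genes with a short AHR-ARNT binding motif. AHR2 is the receptor that carries most responses to such compounds and to dioxin in zebrafish embryos. The classic targets are the CYP1 monooxygenases, which oxidize these compounds, and AHR repressors, which dampen the receptor. Fluoranthene is known in fish as an inhibitor of the CYP1A enzyme, and nitrated compounds such as 3-NF, a component of diesel exhaust, can be activated by reduction of the nitro group.

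Values are normalized reads, the read number of a gene divided by the size factor of its library, recovered from the log2 values the authors deposited. The Fluoranthene libraries held 18568754 to 27210829 reads and the 3-NF libraries 16640653 to 20561063 reads, against 15080232 to 17578612 in DMSO_A and 18599791 to 19955471 in DMSO_B. A gene passed the test when its adjusted p (limma, Benjamini-Hochberg over 21854 genes) was under 0.05, and it was a DEG when its absolute log2 fold change was also over 1. All 12 markers of embryonic tissues, such as myl7 of heart muscle and elavl3 of neurons, were detected in every one of the 15 libraries, and none passed the test in either comparison. Of all genes, 0.27% passed in Fluoranthene and 0% in 3-NF. Whole embryos were sequenced, so fewer cells of a type and less RNA per cell cannot be told apart. The DMSO groups differed from each other in some genes named below, among them fkbp5, klf9 and nr1d2a, and for several results values of DMSO_B, or of the fit with DMSO_B as the control, are given beside those of DMSO_A.

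Fluoranthene had 22 DEGs, 6 higher and 16 lower, which is 0.101% of the genes tested, and 59 genes passed the test without the fold limit (0.27%). The 3-NF libraries had 0 DEGs (0%), and the smallest adjusted p was 0.075. Without adjustment, 1327 genes (6.07%) were under 0.05 in 3-NF with the limma trend fit, and limma with voom weights also gave 0 DEGs. In Fluoranthene 2180 genes (9.98%) were under 0.05 without adjustment. The median log2 fold change over all genes was near 0 in both comparisons (-0.0067 in Fluoranthene and -0.0079 in 3-NF).

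cyp1a, the CYP1 enzyme used as the standard marker of AHR activation, was the largest change of Fluoranthene. The Fluoranthene libraries held 1381, 1415, 1197 and 1714 normalized reads of cyp1a, against 132, 260 and 127 in DMSO_A. Every exposed library was far above every control library. The log2 fold change of cyp1a was 3.11 ± 0.42 (SE), or 8.61-fold, with an adjusted p of 3.99e-06 (limma), and it passed in all 18 alternative analyses (log2 fold change 2.81 to 3.44).

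In 3-NF the cyp1a levels were 886, 446, 692 and 694 normalized reads, against 225, 200, 142 and 198 in DMSO_B. The groups did not overlap for cyp1a, as was the case for 1.7% of all genes in this direction. The log2 fold change of cyp1a in 3-NF was 1.80 ± 0.38 (95% interval 1.03 to 2.57), or 3.48-fold, and the adjusted p was 0.091, so the gene did not pass. A fit of only the groups of the comparison gave cyp1a the same log2 fold change with an adjusted p of 0.0030, DMSO_A as the control gave 2.01 with an adjusted p of 0.0055, and both control groups pooled gave 1.89 with an adjusted p of 0.0021. Over all 19 alternatives the adjusted p of cyp1a in 3-NF ran from 0.0021 to 0.43.

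The same gene gives a place for both compounds among the 18 groups of the study, listed here by the median of cyp1a as a description. The groups BkF, retene, BjF, DBaiP, DBahP and BbF came before Fluoranthene, which ranked 7 with a median of 1398 normalized reads of cyp1a. 9-MA followed with a median of 1299, and its libraries (905 to 1369) overlapped those of Fluoranthene (1197 to 1714). 3-NF ranked 10 with a median cyp1a level of 693, just before phenanthrene with 667 (238 to 1186), whose libraries spanned the range of 3-NF. DMSO_B and DMSO_A held the lowest ranks with medians of 199 and 132 for cyp1a, with overlapping libraries.

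The other CYP1 genes moved less. cyp1c2, a CYP1 enzyme of fish, stood at 102, 79.7, 81.6 and 100 normalized reads in Fluoranthene, against 54.1, 40.7 and 55.1 in DMSO_A. The groups did not overlap, and the log2 fold change of cyp1c2 was 0.85 ± 0.17 with an adjusted p of 0.0056 (limma), so it passed the test but not the fold limit. Without DMSO_A replicate 3 the adjusted p of cyp1c2 was 0.18. In 3-NF cyp1c2 held 79, 67.9, 86.9 and 73.3 normalized reads, against 44, 43.5, 49.6 and 70.5 in DMSO_B. The highest control library of cyp1c2 overlapped the exposed range, and its log2 fold change of 0.58 had an adjusted p of 0.46.

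cyp1c1, the neighbouring family member, did not pass in either comparison. In Fluoranthene cyp1c1 held 199, 230, 200 and 303 normalized reads, against 127, 169 and 137 in DMSO_A (log2 fold change 0.67, adjusted p 0.11). cyp1c1 passed in Fluoranthene only with another control, such as DMSO_B (log2 fold change 0.77, adjusted p 0.018, limma). In 3-NF cyp1c1 held 193, 178, 211 and 235 normalized reads, against 128, 133, 131 and 143 in DMSO_B (log2 fold change 0.60, adjusted p 0.48). In both comparisons every exposed library lay above every control library for cyp1c1. cyp1d1, a CYP1 gene of fish that is not reported as a strong AHR target, showed no such order. It held 252, 292, 345 and 325 normalized reads in Fluoranthene, against 244, 286 and 316 in DMSO_A. In 3-NF cyp1d1 held 209, 206, 299 and 232 normalized reads, against 268, 271, 308 and 310 in DMSO_B. The log2 fold changes of cyp1d1 were 0.10 in Fluoranthene and -0.30 in 3-NF, with adjusted p-values of 0.80 and 0.61 and overlapping groups.

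**Figure D1:**
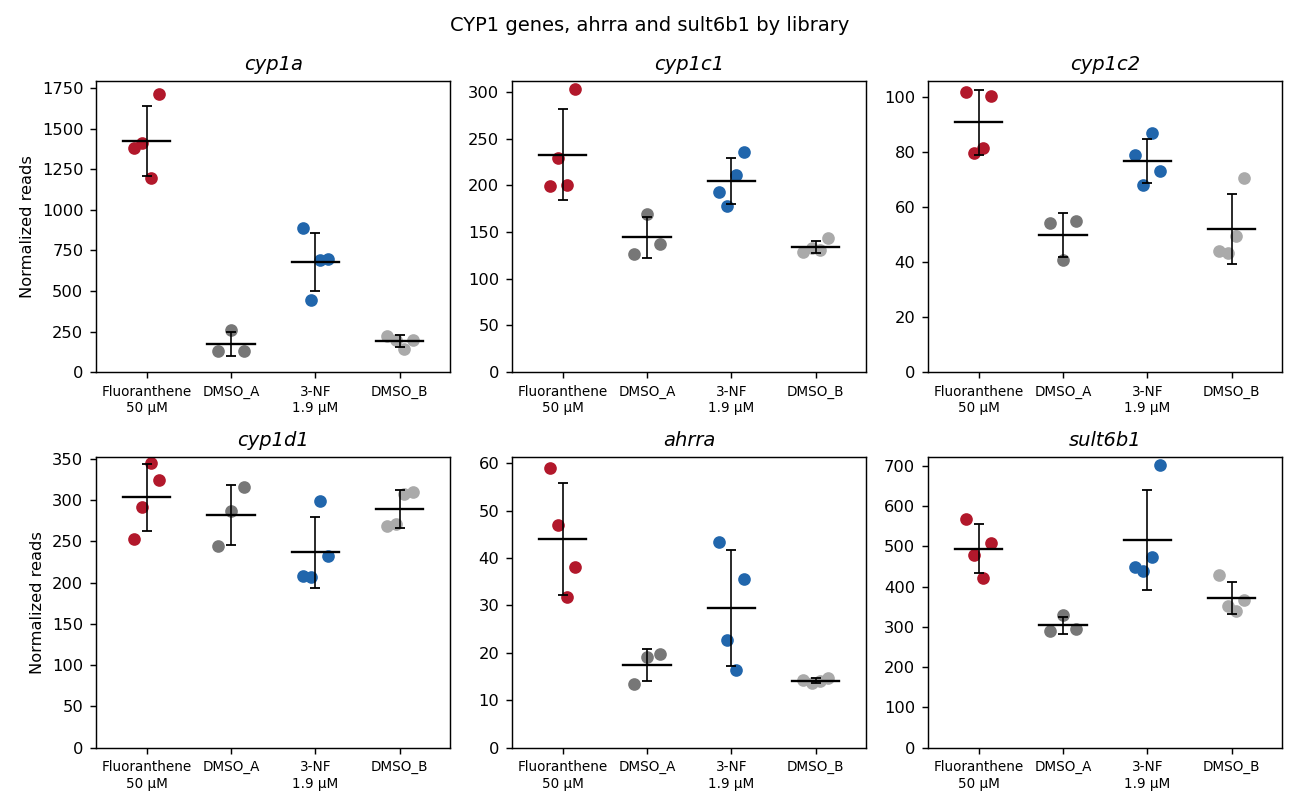
Normalized reads (vertical axis, from 0) of cyp1a, cyp1c1, cyp1c2, cyp1d1, ahrra and sult6b1 in each library of Fluoranthene, DMSO_A, 3-NF and DMSO_B. Points are libraries, the line is the group mean and the bar its SD; cyp1a lies between 1197 and 1714 in Fluoranthene, against 127 to 260 in DMSO_A, and between 446 and 886 in 3-NF, against 142 to 225 in DMSO_B.

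Of the 14 measured genes of AHR receptors, partners and repressors, 1 passed the test in Fluoranthene (0.27% of all genes passed) and 0 in 3-NF (0%). It was ahrra, a repressor that the receptor itself induces. The Fluoranthene libraries held 59.08, 47, 31.8 and 38.2 normalized reads of ahrra, against 13.5, 19.1 and 19.7 in DMSO_A. The groups were apart, and the log2 fold change of ahrra was 1.27 ± 0.30 with an adjusted p of 0.033 (limma). The call of ahrra was lost without Fluoranthene replicates 1 or 2 (adjusted p 0.22 and 0.13) and without DMSO_A replicates 2, 3 or 4 (0.20, 0.12 and 0.081). ahrra passed with DMSO_B as the control (log2 fold change 1.53, adjusted p 0.00077, limma).

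In 3-NF, ahrra held 43.4, 22.6, 16.3 and 35.6 normalized reads, against 14.3, 13.6, 14 and 14.8 in DMSO_B. Every exposed library was again above every control library, while the exposed libraries spread widely. In 3-NF the log2 fold change of ahrra was 0.91 with an adjusted p of 0.48. The receptor gene ahr2 lay at 1923, 1956, 1848 and 1842 normalized reads in Fluoranthene, against 1773, 2022 and 1970 in DMSO_A, and its log2 fold change was -0.02 (95% interval -0.23 to 0.19). In 3-NF the log2 fold change of ahr2 was -0.04 (-0.24 to 0.15).

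A list of 23 genes was taken from those that the study's network links to cyp1a, directly or through another gene. Of these, 4 rose in Fluoranthene and 0 fell, where 0.27% of all genes passed in either direction. The median log2 fold change of the 23 was 0.40. At an unadjusted p under 0.05, 10 of them were higher, where 4.55% of all genes were. The study chose these genes on these samples, so they are not independent evidence of a direction. In 3-NF, 0 of the 23 passed, the median was 0.10 and 5 were higher at an unadjusted p under 0.05, where 2.62% of all genes were. The 4 genes were ahrra, cyp1c2, sult6b1 and plvapa, of which the paper places plvapa among the genes linked through another gene. The count was 0 without DMSO_A replicate 3, and 1 without Fluoranthene replicate 1, without Fluoranthene replicate 2, without DMSO_A replicate 2 or with voom weights. sult6b1, a cytosolic sulfotransferase, held 567, 480, 423 and 508 normalized reads in Fluoranthene, against 289, 328 and 294 in DMSO_A. The groups did not overlap, and the log2 fold change of sult6b1 was 0.70 ± 0.16 with an adjusted p of 0.031 (limma). Leaving out 1 library ended the call of sult6b1 for each library except Fluoranthene replicate 3: the adjusted p was 0.19, 0.078 and 0.072 without Fluoranthene replicates 1, 2 and 4, and 0.15, 0.089 and 0.17 without DMSO_A replicates 2, 3 and 4. In 3-NF sult6b1 held 449, 438, 475 and 702 normalized reads, against 430, 351, 338 and 367 in DMSO_B. All exposed libraries were above the controls by a small margin apart from replicate 4, and the adjusted p of sult6b1 was 0.54.

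plvapa, whose product forms the diaphragm of endothelial fenestrae, held 30.5, 34.7, 27.2 and 23.4 normalized reads in Fluoranthene, against 11.4, 14.4 and 14.8 in DMSO_A. Its exposed libraries were all above the DMSO_A libraries, but the DMSO_B libraries held 15.9 to 25.3 normalized reads of plvapa and reached into the exposed range. Against DMSO_A the log2 fold change of plvapa was 1.04 with an adjusted p of 0.031 (limma), and against DMSO_B it was 0.43 with an adjusted p of 0.64. Leaving out any library other than Fluoranthene replicate 4 also ended the call of plvapa: the adjusted p was 0.12, 0.17 and 0.06 without Fluoranthene replicates 1, 2 and 3, and 0.17, 0.12 and 0.081 without DMSO_A replicates 2, 3 and 4. The 3-NF libraries held 10.9, 21.9, 23.8 and 18.1 normalized reads of plvapa and did not stand apart from DMSO_B.

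Several neighbours of cyp1a had a fold of comparable size without passing the test. wfikkn1, a secreted protease inhibitor that binds myostatin, held 23.4, 36.8, 24.5 and 22.1 normalized reads in Fluoranthene, against 7.83, 15.9 and 8.23 in DMSO_A (log2 fold change 1.29, adjusted p 0.084). mamdc2b held 23, 45, 34.5 and 28.1 normalized reads in Fluoranthene, against 12.1, 10.4 and 19.7 in DMSO_A (log2 fold change 1.17, adjusted p 0.062). In 3-NF the log2 fold change of mamdc2b was -0.63, with 21.1, 17.1, 12.6 and 23.2 normalized reads against 29.1, 30.5, 25.4 and 28.9 in DMSO_B. The exposed libraries of mamdc2b thus lay above their controls in Fluoranthene and below them in 3-NF, and neither passed. The control groups differed for mamdc2b, with DMSO_A (10.4 to 19.7) below DMSO_B (25.4 to 30.5). The Fluoranthene libraries overlapped DMSO_B and the 3-NF libraries overlapped DMSO_A. The part that the control groups have in these opposite directions was not tested. gstp1.2, a glutathione S-transferase, had log2 fold changes of 0.45 (adjusted p 0.13) in Fluoranthene and 0.39 (adjusted p 0.48) in 3-NF.

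TCDD, the dioxin used as a strong AHR agonist in another of the combined studies (4 libraries at 1 ng/mL, against 4 control libraries at 0.1% DMSO), gave 76 DEGs (0.348% of genes), 65 higher and 11 lower, which serve here as a list of dioxin-responsive genes in embryos of this age. Of the 65 genes higher in TCDD, 50 had a log2 fold change above 0 in Fluoranthene. Of the 65, 5 passed the test there (0.27% of all genes passed), namely cyp1a, ahrra, cyp1c2, sult6b1 and plvapa. The median log2 fold change of the 65 in Fluoranthene was 0.26 (all genes -0.007), against a median of 1.66 in TCDD. The count of the 65 with every Fluoranthene library above every DMSO_A library was 18, where 6.24% of all genes had that order. In 3-NF, 40 of the 65 were above 0, 0 passed, the median was 0.074 (all genes -0.008), and 6 had every exposed library above every DMSO_B library, against 1.7% of all genes. Of the 11 genes lower in TCDD, 8 were below 0 in Fluoranthene and 6 in 3-NF, and 0 passed in either.

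The values of TCDD, which belongs to another study with another dose, are given beside those of Fluoranthene and 3-NF, and no test was made between them. The log2 fold change of cyp1a was 7.68 in TCDD, beside 3.11 in Fluoranthene and 1.80 in 3-NF. For cyp1c1 it was 5.44 in TCDD, beside 0.67 and 0.60. For ahrra it was 5.71 in TCDD, beside 1.27 and 0.91. For plvapa it was 1.00 in TCDD and 1.04 in Fluoranthene, and for mmp9 it was 1.302 in TCDD and 1.93 in Fluoranthene.

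**Figure D2:**
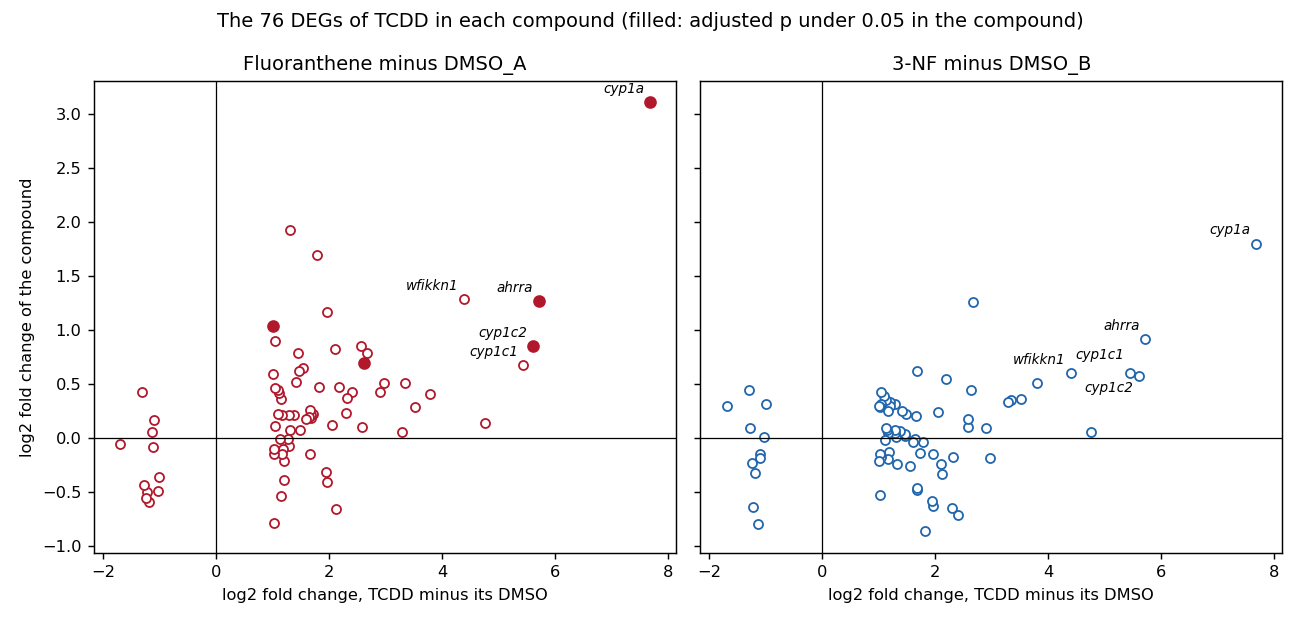
Log2 fold change of the 76 DEGs of TCDD in TCDD (horizontal axis) against their log2 fold change in Fluoranthene and in 3-NF (vertical axes, one panel each). Each point is a gene and filled points passed the test in the compound; cyp1a is the highest point in both panels, at 3.11 in Fluoranthene and 1.80 in 3-NF, and no point is filled in the 3-NF panel.

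Among the TCDD genes, 2 matrix metalloproteinases stood out in single Fluoranthene libraries and were chosen here after their values were seen. mmp9, a gelatinase of tissue remodelling and inflammation, held 701, 132, 82.2 and 842 normalized reads in Fluoranthene, against 68.3, 72.6 and 80.6 in DMSO_A. mmp13a, a collagenase, held 140, 46.3, 48.4 and 404 normalized reads in Fluoranthene, against 36.3, 31.9 and 28.8 in DMSO_A. Replicates 1 and 4, both in lane 5, were high for both genes. Replicates 2 and 3, in lanes 4 and 1, were closer to the controls, though above them. DMSO_A replicate 3 was also in lane 5, and a part of lane in this split was not tested. With this spread the log2 fold changes of 1.93 for mmp9 and 1.69 for mmp13a had adjusted p-values of 0.12 and 0.13.

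The remaining genes that rose as DEGs in Fluoranthene were nkx2.9, a homeobox transcription factor of the ventral neural tube, and a pair of genes without a known role, si.dkey-88n24.11 and GeneID_108179074. si.dkey-88n24.11 held 18.8, 14.3, 15.3 and 8.03 normalized reads in Fluoranthene, against 1.42, 1.59 and 0 in DMSO_A, with a log2 fold change of 2.98 and an adjusted p of 0.00049 (limma). The DMSO_B libraries held 4.34, 3.89, 17.2 and 12.1 normalized reads of si.dkey-88n24.11 and overlapped the exposed ones, and with DMSO_B as the control the log2 fold change was 0.71 with an adjusted p of 0.76. nkx2.9 held 69.9, 40.9, 48.4 and 35.5 normalized reads in Fluoranthene, against 20.6, 32.7 and 16.5 in DMSO_A and 25.4 to 40.3 in DMSO_B (log2 fold change 1.04, adjusted p 0.047). GeneID_108179074 held 10.3, 8.85, 3.32 and 5.36 normalized reads in Fluoranthene, against 0.71, 0.8 and 1.65 in DMSO_A (log2 fold change 1.89, adjusted p 0.033). All 3 genes had exposed libraries above every DMSO_A library, and against DMSO_B none passed, with adjusted p-values of 0.63 for both nkx2.9 and GeneID_108179074. The calls of nkx2.9 and GeneID_108179074 were lost without single libraries: nkx2.9 without Fluoranthene replicates 1, 2 or 3 (adjusted p 0.30, 0.075 and 0.11) or DMSO_A replicates 2 or 4 (0.17 and 0.41), and GeneID_108179074 without Fluoranthene replicates 1 or 2 (0.20 and 0.16) or DMSO_A replicates 2, 3 or 4 (0.16, 0.21 and 0.059). Just under the fold limit stood ugt1a7, a UDP-glucuronosyltransferase that conjugates hydroxylated aromatic compounds, with 71.3, 92, 65 and 74.3 normalized reads in Fluoranthene, against 32.7, 31.9 and 48.5 in DMSO_A (log2 fold change 0.999, adjusted p 0.025). In 3-NF ugt1a7 had a log2 fold change of 0.67 with an adjusted p of 0.53.

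Several genes of cholesterol synthesis fell in Fluoranthene. Of 23 measured genes of cholesterol synthesis and uptake, 4 passed the test as lower and 0 as higher, where 0.27% of all genes passed in either direction. The log2 fold change was below 0 for 20 of the 23. Their median log2 fold change was -0.415, beside -0.007 over all genes, and 12 of the 23 were lower at an unadjusted p under 0.05, where 5.42% of all genes were. For 14 of the 23 every Fluoranthene library lay below every DMSO_A library, an order found for 6.75% of all genes. The 4 that fell were sqlea, lss, cyp51 and hsd17b7, which act in the sterol part of the pathway as squalene epoxidase, lanosterol synthase, lanosterol demethylase and a ketosteroid reductase.

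cyp51 held 111, 110, 101.48 and 85 normalized reads in Fluoranthene, against 202, 215 and 199 in DMSO_A and 181, 202, 256 and 181 in DMSO_B. The exposed libraries of cyp51 were below every control library of both groups, and the log2 fold change was -1.01 ± 0.14 with an adjusted p of 1.63e-05 (limma). sqlea held 40.3, 31.3, 34.5 and 36.8 normalized reads in Fluoranthene, against 88.3, 71.8 and 69.9 in DMSO_A and 65.7, 92.8, 63 and 61.8 in DMSO_B. It too lay below all 7 control libraries, with a log2 fold change of -1.08 ± 0.17 and an adjusted p of 0.00012. Both cyp51 and sqlea passed in all 18 alternatives, with DMSO_B as the control included (log2 fold changes -0.99 and -0.95).

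lss held 31.9, 26.6, 21.2 and 28.1 normalized reads in Fluoranthene, against 79, 70.16 and 35.4 in DMSO_A and 80.6, 69.4, 70.6 and 45 in DMSO_B. The lowest control library of lss was close to the highest exposed library, and the log2 fold change was -1.10 ± 0.23 with an adjusted p of 0.013 (limma). Without Fluoranthene replicate 3 the adjusted p of lss was 0.069, and without DMSO_A replicates 2 or 3 it was 0.17 and 0.19. lss passed with DMSO_B as the control (log2 fold change -1.25, adjusted p 0.00035, limma). hsd17b7 held 121, 121, 115 and 112 normalized reads in Fluoranthene, against 180, 179 and 196 in DMSO_A, all exposed libraries below all controls. For hsd17b7 the log2 fold change was -0.65 ± 0.14 with an adjusted p of 0.015, which was 0.066, 0.065 and 0.12 without DMSO_A replicates 2, 3 and 4. hsd17b7 passed with DMSO_B as the control (log2 fold change -0.93, adjusted p 4.6e-06, limma).

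Upstream genes of the pathway gave log2 fold changes below 0 that did not pass. They were -0.99 for hmgcra (adjusted p 0.18), a reductase that sets the rate of the pathway, -0.93 for mvk (0.16), -0.82 for pmvk (0.063), -0.49 for idi1 (0.19) and -0.42 for hmgcs1 (0.059). The hmgcra levels were 30.9, 22.5, 27.9 and 38.8 normalized reads in Fluoranthene, against 49.1, 82.1 and 52.7 in DMSO_A. In DMSO_B they were 35.3 to 48.7, which overlapped the exposed range. With DMSO_B as the control the log2 fold changes were -0.445 for hmgcra, -0.439 for mvk, -0.509 for pmvk and -0.304 for idi1. Their adjusted p-values were 0.72, 0.69, 0.43 and 0.55 (limma). hmgcs1 passed in that fit (log2 fold change -0.40, adjusted p 0.044, limma). The second reductase gene hmgcrb (log2 fold change 0.09) and dhcr7 (0.11), which acts at the end of the pathway, were above 0. With a library left out, 2 to 6 genes of the list passed as lower and the median was -0.353 to -0.514; 2 passed without DMSO_A replicate 2 or without DMSO_A replicate 3, and 6 without Fluoranthene replicate 4. With DMSO_B as the control 6 passed, where 50 of all 21854 genes passed in either direction.

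In 3-NF, 0 of the 23 cholesterol genes passed, 4 were lower at an unadjusted p under 0.05 (3.45% of all genes), and the median was -0.145. For 2 of the 23 every 3-NF library lay below every DMSO_B library, an order found for 2.1% of all genes. cyp51 held 191, 236, 175 and 194 normalized reads in 3-NF, within the DMSO_B range of 181 to 256, and its log2 fold change was -0.04 (95% interval -0.30 to 0.23). sqlea was 50.6, 56.9, 45.3 and 54.4 normalized reads in 3-NF, below every DMSO_B library, with a log2 fold change of -0.43 and an adjusted p of 0.63. hsd17b7 was 161, 189, 154 and 171 normalized reads in 3-NF, against 258, 230, 218 and 197 in DMSO_B, also without overlap, with a log2 fold change of -0.42 and an adjusted p of 0.53.

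**Figure D3:**
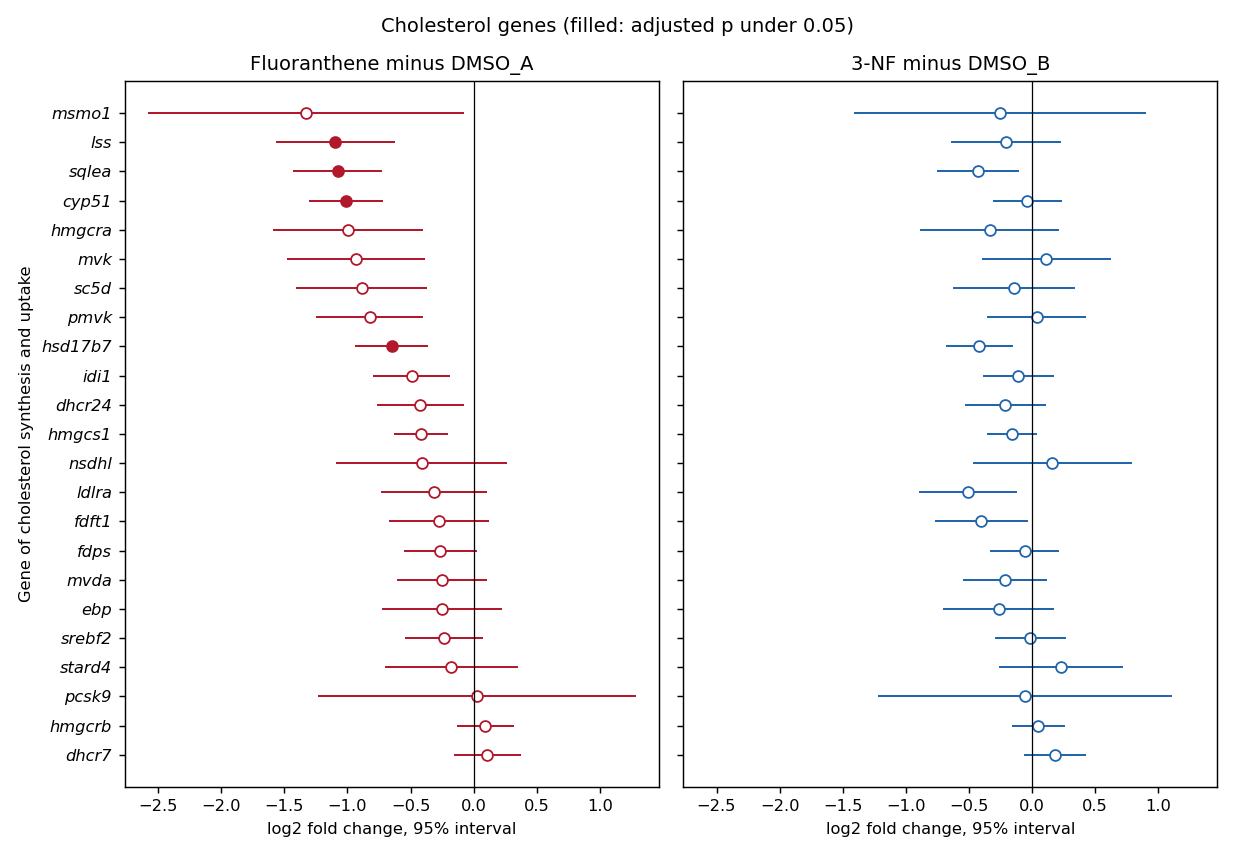
Log2 fold change (horizontal axis) with its 95% interval for the 23 measured genes of cholesterol synthesis and uptake (rows), in Fluoranthene against DMSO_A and in 3-NF against DMSO_B. Filled points passed the test; 4 genes are filled in Fluoranthene, all below 0, and none is filled in 3-NF.

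dhrs13a.2, a short-chain dehydrogenase/reductase, fell in Fluoranthene against either control group. It held 111, 82.4, 90.2 and 103 normalized reads in Fluoranthene, against 406, 380 and 162 in DMSO_A and 229, 274, 302 and 207 in DMSO_B. Its exposed libraries were below all 7 control libraries, the log2 fold change was -1.60 ± 0.24 with an adjusted p of 3.38e-05 (limma), and it passed in all 18 alternatives. In 3-NF dhrs13a.2 held 147, 201, 158 and 172 normalized reads, below each DMSO_B library, with a log2 fold change of -0.57 and an adjusted p of 0.68. sik1, a salt-inducible kinase that curbs cAMP signalling, was lower by less than the fold limit, with 413, 300, 324 and 338 normalized reads in Fluoranthene, against 564, 586 and 512 in DMSO_A. sik1 was named here after its values were seen, and its log2 fold change was -0.70 with an adjusted p of 0.00021, and it also passed in all 18 alternatives.

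Some falls against DMSO_A were in genes whose level differed between the control groups. fkbp5, a co-chaperone of the glucocorticoid receptor and one of its targets, held 50.6, 28.6, 39.8 and 83.7 normalized reads in Fluoranthene, against 620, 546 and 152 in DMSO_A, but 69.4, 88.2, 49.6 and 53.7 in DMSO_B. Fluoranthene lay below every DMSO_A library and within or near the range of DMSO_B. For fkbp5 the log2 fold change was -2.96 ± 0.45 against DMSO_A (adjusted p 3.78e-05, limma) and -0.43 against DMSO_B (adjusted p 0.87). The mean of fkbp5 was 6.73 times as high in DMSO_A as in DMSO_B.

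klf9, a transcription factor that glucocorticoids induce, held 6.56, 5.45, 11.9 and 8.7 normalized reads in Fluoranthene, against 32, 43.1 and 28 in DMSO_A, but 3.82 to 8.73 in DMSO_B. Its log2 fold change was -1.98 with an adjusted p of 0.043 against DMSO_A (limma), and 0.42 with an adjusted p of 0.89 against DMSO_B. The call of klf9 was also lost without Fluoranthene replicates 1, 2 or 4 (adjusted p 0.17, 0.20 and 0.067) and without DMSO_A replicates 2, 3 or 4 (0.13, 0.35 and 0.099). nr1d2a, a nuclear receptor of the circadian clock, held 497, 592, 641 and 566 normalized reads in Fluoranthene, against 2042, 1682 and 1103 in DMSO_A, but 626, 649, 709 and 747 in DMSO_B. For nr1d2a the log2 fold change was -1.45 ± 0.17 against DMSO_A (adjusted p 3.30e-07) and -0.25 against DMSO_B (adjusted p 0.74). These 3 genes fell in Fluoranthene against its own control group, and the part that the level of DMSO_A has in this was not tested.

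Among 20 measured targets of glucocorticoids, 3 fell in Fluoranthene, where 0.27% of all genes passed in either direction. They were fkbp5, klf9 and pfkfb4b (log2 fold change -0.68, adjusted p 0.0036), a regulator of glycolysis. pfkfb4b held 715, 557, 671 and 667 normalized reads in Fluoranthene, against 1180, 1214 and 787 in DMSO_A and 596 to 675 in DMSO_B, the last of these overlapping the exposed libraries. The call of pfkfb4b was lost without DMSO_A replicates 2 or 3 (adjusted p 0.078 and 0.13), and with DMSO_B as the control its log2 fold change was 0.04 with an adjusted p of 0.97. The median log2 fold change of the 20 was -0.166. Of the 20, 1 passed without DMSO_A replicate 2 or without DMSO_A replicate 3, and 0 passed with DMSO_B as the control or with both control groups pooled.

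Of 35 clock genes, 1 (nr1d2a) passed as lower in Fluoranthene and 0 as higher, where 0.27% of all genes passed in either direction. The median of the 35 was -0.108. Against DMSO_B 0 passed as lower and 4 as higher, where 50 of all 21854 genes passed in either direction, and the median of the 35 was 0.115. Among them were cry1a, per1b and per2, clock repressors, with log2 fold changes against DMSO_B of 1.53, 0.73 and 0.83 and adjusted p-values of 5.50e-13, 5.85e-05 and 0.00082. Against DMSO_A the log2 fold change of per2, which light induces in zebrafish, was 0.62 with an adjusted p of 0.076, and cry1a and per1b were at 0.34 and -0.31.

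In 3-NF, 0 of the 20 glucocorticoid targets and 0 of the 35 clock genes passed. With DMSO_A as the control 3 of the glucocorticoid targets and 9 of the clock genes passed as lower. Of all 21854 genes, 235 passed in either direction in that fit. With both control groups pooled 1 and 5 passed as lower, where 48 of all genes passed in either direction. fkbp5 held 19.3, 22.6, 14.1 and 37 normalized reads in 3-NF, below the 49.6 to 88.2 of DMSO_B, and its log2 fold change was -1.496 with an adjusted p of 0.48. nr1d2a held 402, 424, 379 and 365 normalized reads in 3-NF, against 626, 649, 709 and 747 in DMSO_B. The groups of nr1d2a were apart, and its log2 fold change of -0.80 ± 0.16 had an adjusted p of 0.075.

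**Figure D4:**
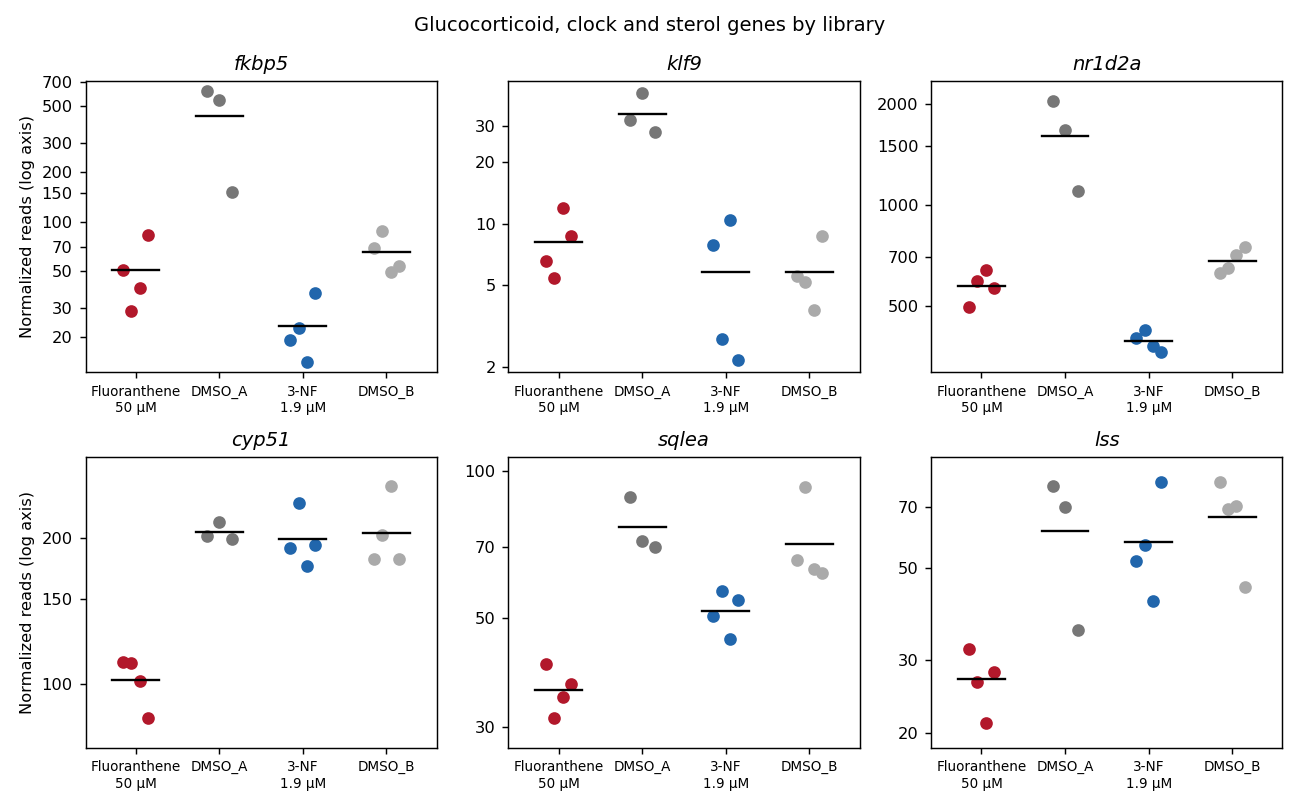
Normalized reads (vertical axis, log scale) of fkbp5, klf9, nr1d2a, cyp51, sqlea and lss in each library of Fluoranthene, DMSO_A, 3-NF and DMSO_B. Points are libraries and lines are group means; for fkbp5, klf9 and nr1d2a the DMSO_A libraries stand above all other groups, while for cyp51 and sqlea Fluoranthene stands below both control groups.

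The other 9 genes that fell as DEGs in Fluoranthene had varied roles. klf3, a transcriptional repressor, held 110, 119, 131 and 116 normalized reads in Fluoranthene, against 253, 256 and 214 in DMSO_A (log2 fold change -1.01, adjusted p 0.00092, limma), and it passed with each library left out. With DMSO_B as the control the log2 fold change of klf3 was -0.35 with an adjusted p of 0.59. bicdl2l held 39.9, 40.2, 81.6 and 38.2 normalized reads in Fluoranthene, against 115, 131 and 81.5 in DMSO_A (log2 fold change -1.16, adjusted p 0.0036), with replicate 3 apart from the other exposed libraries and level with the lowest DMSO_A library. Without DMSO_A replicate 3 the adjusted p of bicdl2l was 0.11, and with DMSO_B as the control it was 0.49.

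rgs2, which shortens signalling through G proteins, held 18.8, 26.6, 22.6 and 21.4 normalized reads in Fluoranthene, against 79.7, 47.8 and 38.7 in DMSO_A and 41 to 59.16 in DMSO_B. All exposed libraries of rgs2 were below both control groups, and its log2 fold change was -1.22 with an adjusted p of 0.013 (limma). Its call was lost without Fluoranthene replicate 1 (adjusted p 0.095) and without DMSO_A replicates 2 or 3 (0.21 and 0.056). rgs2 passed with DMSO_B as the control (log2 fold change -1.19, adjusted p 0.0063, limma). rag1, a recombinase of developing lymphocytes, held 13.6, 11.6, 7.96 and 4.69 normalized reads in Fluoranthene, against 28.5, 23.9 and 22.2 in DMSO_A and 12.4 to 25.4 in DMSO_B (log2 fold change -1.39, adjusted p 0.013). The call of rag1 was lost without Fluoranthene replicate 4 (adjusted p 0.10), without DMSO_A replicates 2 or 3 (0.10 and 0.065) and with DMSO_B as the control (0.11).

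dre-mir-137-1, the hairpin gene of a miRNA of the nervous system, had 7.5, 12.9, 11.9 and 8.03 normalized reads in Fluoranthene, against 30.6, 22.3 and 32.1 in DMSO_A, and the groups were apart (log2 fold change -1.42, adjusted p 0.013, limma). The libraries were polyA-selected, so this row counts reads over the hairpin gene and not the mature miRNA. ankrd9 held 40.3, 42.2, 63 and 44.2 normalized reads in Fluoranthene, against 117, 132 and 84.8 in DMSO_A (log2 fold change -1.21, adjusted p 0.013). cdkn1d, an inhibitor of cyclin-dependent kinases, held 22.5, 42.2, 56.4 and 53.6 normalized reads in Fluoranthene, against 91.1, 75 and 91.3 in DMSO_A (log2 fold change -1.03, adjusted p 0.013). For these 3 genes no exposed library reached the lowest DMSO_A library. With DMSO_B as the control dre-mir-137-1 and cdkn1d had adjusted p-values of 0.41 and 0.60. ankrd9 passed in that fit, with a log2 fold change of -1.12 and an adjusted p of 0.011 (limma).

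tnni4b.3, a troponin I of muscle, held 4.22, 6.81, 29.8 and 13.4 normalized reads in Fluoranthene, against 24.2, 51.8 and 33.7 in DMSO_A, with overlapping groups (log2 fold change -1.63, adjusted p 0.020, limma). si.dkey-23n7.10 was at 3.28, 0, 1.99 and 2.01 normalized reads in Fluoranthene, against 18.5, 9.57 and 6.58 in DMSO_A (log2 fold change -2.22, adjusted p 0.049), so it rests on few reads. With DMSO_B as the control neither passed, with log2 fold changes of -1.15 for tnni4b.3 and -0.95 for si.dkey-23n7.10 and adjusted p-values of 0.19 and 0.65. Single libraries decided these calls. tnni4b.3 lost its call without Fluoranthene replicates 1 or 2 (adjusted p 0.25 and 0.15) or DMSO_A replicates 3 or 4 (0.37 and 0.081). si.dkey-23n7.10 lost it without any 1 of the 7 libraries, with adjusted p-values of 0.058, 0.29, 0.08 and 0.067 without Fluoranthene replicates 1 to 4 and 0.26, 0.19 and 0.066 without DMSO_A replicates 2 to 4. dre-mir-137-1 lost its call without Fluoranthene replicates 1 or 4 (0.11 and 0.05025) or DMSO_A replicates 2 or 4 (0.091 and 0.12). ankrd9 lost it without Fluoranthene replicates 1 or 2 (0.077 and 0.054) or DMSO_A replicates 2 or 3 (0.082 and 0.19), and cdkn1d without Fluoranthene replicate 1 (0.23) or DMSO_A replicates 2 or 4 (0.091 and 0.098).

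No gene passed in 3-NF, so its genes with the smallest p are given as values only. The 10 included cyp1a and nr1d2a, described above. klf2b, a Krüppel-like transcription factor, held 709, 690, 663 and 657 normalized reads in 3-NF, against 529, 428, 506 and 449 in DMSO_B (log2 fold change 0.51, adjusted p 0.075). per1b, a clock repressor, held 534, 544, 602 and 678 normalized reads in 3-NF, against 657, 945, 848 and 960 in DMSO_B (log2 fold change -0.52, adjusted p 0.11). klf2b did not overlap between the groups, and per1b did by 1 library. Without DMSO_B replicate 1 both passed, klf2b with an adjusted p of 0.033 and per1b with 0.021.

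mtmr12, an adaptor of myotubularin phosphatases, held 3.62, 3.43, 8.92 and 5.08 normalized reads in 3-NF, against 14.3, 17.5, 14.6 and 18.8 in DMSO_B (log2 fold change -1.54, adjusted p 0.088, or 0.048 without 3-NF replicate 3). twsg1b, a modulator of BMP signalling outside the cell, held 45.2, 41.1, 50.5 and 37.7 normalized reads in 3-NF, against 20.46, 15.6, 18.4 and 21.5 in DMSO_B (log2 fold change 1.16, adjusted p 0.27). Both had exposed libraries clear of the control libraries. adprm held 20.499, 15.8, 14.9 and 21 normalized reads in 3-NF, against 1.86, 5.84, 7 and 13.4 in DMSO_B (log2 fold change 1.45, adjusted p 0.27). si.dkey-34k9.3 was at 1.81, 2.06, 0 and 0 normalized reads in 3-NF, against 4.96, 4.54, 6.36 and 7.39 in DMSO_B, which are few reads (log2 fold change -1.97, adjusted p 0.27). The last of the 10, zgc_110239 and myt1la, a transcription factor of neurons, had log2 fold changes of 0.37 and -0.29 with adjusted p-values of 0.13 and 0.27.

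No gene of all 21854 passed in 3-NF, so the lists for a nitro group, oxidative stress or DNA damage could hold none that did. Of 17 measured genes of nitro reduction and acetylation, the smallest adjusted p in 3-NF was that of cbr1l, a carbonyl reductase, with 616, 658, 671 and 803 normalized reads in 3-NF, against 465, 578, 561 and 414 in DMSO_B. Its libraries did not overlap between the groups, and the log2 fold change of cbr1l was 0.45 with an adjusted p of 0.48. Of 26 measured genes of the Nrf2 and glutathione list, 17 were above 0 in 3-NF and the median was 0.148, and in Fluoranthene 14 were above 0 with a median of 0.051. At an unadjusted p under 0.05 (limma), 5 were higher and 0 lower in 3-NF, where 2.62% and 3.45% of all genes were. In Fluoranthene 6 were higher and 2 lower, where 4.55% and 5.42% of all genes were. sqstm1, an autophagy receptor that Nrf2 induces, held 374, 400, 417 and 491 normalized reads in 3-NF, against 326, 204, 289 and 300 in DMSO_B (log2 fold change 0.60, adjusted p 0.32), with no overlap. Of 26 measured genes of p53 and DNA damage, 23 were above 0 in 3-NF with a median of 0.137 and 11 in Fluoranthene with a median of -0.070. None of the 26 passed in either, and the smallest adjusted p in 3-NF was 0.73 (limma). In 3-NF 1 was higher and 1 lower at an unadjusted p under 0.05, where 2.62% and 3.45% of all genes were. The median over all genes was -0.008 in 3-NF and -0.007 in Fluoranthene.

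In Fluoranthene 0 genes passed in the lists for Nrf2 and glutathione, nitro reduction, glutathione S-transferases, p53, heat shock, hypoxia and ABC transporters. Of 55 other cytochrome P450s, 1 passed, which was cyp51. No gene passed in either compound in the lists for heart muscle (28 measured), skeletal muscle (33), yolk and liver (25), lens crystallins (24), photoreceptors (37), embryonic blood (21), neurons (28) and DNA replication (28). Of all genes, 0.27% passed in Fluoranthene and 0% in 3-NF. A count of 0 in lists of these sizes, here or above, therefore says little about their genes. The lens crystallins had 20 of 24 genes below 0 in Fluoranthene, with a median of -0.242 and a smallest adjusted p of 0.37 (limma). Of the 24, 2 were lower at an unadjusted p under 0.05, where 5.42% of all genes were. In 3-NF 9 of the 24 were below 0, with a median of 0.075.

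In all, 4 pairs were compared at matched concentration and age, with p-values adjusted over the 4 pairs and all genes together. Fluoranthene and BbF share their control group and differ by the further benzene ring of BbF. Fluoranthene had 30 DEGs against BbF (0.137%), 13 higher and 17 lower. cyp1a held 1381, 1415, 1197 and 1714 normalized reads in Fluoranthene, against 10760, 12754 and 9288 in BbF. The groups were far apart, and the difference of cyp1a on the log2 scale was -2.94 (95% interval -3.77 to -2.11, adjusted p 8.02e-06, limma). cyp1c1 held 199 to 303 normalized reads in Fluoranthene, against 1332, 1318 and 1172 in BbF, a difference of -2.47 (-2.83 to -2.10, adjusted p 2.67e-15). cyp1c2 differed by -1.37, ahrra by -1.76 and sult6b1 by -1.25, with adjusted p-values of 2.30e-07, 0.00038 and 7.48e-07, and each of these 5 genes passed in all alternatives. cyp1d1 differed by 0.12 (95% interval -0.11 to 0.35) and did not pass.

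The cholesterol genes also separated Fluoranthene from BbF. cyp51 held 111, 110, 101.48 and 85 normalized reads in Fluoranthene, against 204, 212 and 231 in BbF, without overlap. The difference of cyp51 was -1.08 (95% interval -1.37 to -0.79, adjusted p 1.95e-06, limma). lss differed by -1.26 (-1.72 to -0.80, adjusted p 0.0020) and sqlea by -0.90 (-1.25 to -0.56, adjusted p 0.0038). fkbp5 held 28.6 to 83.7 normalized reads in Fluoranthene, against 263, 208 and 251 in BbF, a difference of -2.33 (adjusted p 0.0044). abch1, an ABC transporter of fish, was higher at 34.7, 36.1, 31.2 and 42.8 normalized reads in Fluoranthene, against 6.24, 14.8 and 16.5 in BbF (difference 1.55, adjusted p 0.0071, or 0.17 without BbF replicate 1). Of the other DEGs with the largest differences, zmp_0000000906 (1.95), cacnb4a (1.6997), znf821 (1.59), mypn (1.57) and si.ch211-202h22.7 (-1.78) each lost their call without some single libraries, BbF replicates 2 and 3 among them for all 5: the adjusted p without BbF replicate 2 was 0.17, 0.38, 0.32, 0.31 and 0.066 in that order, and without BbF replicate 3 it was 0.11, 0.083, 0.22, 0.11 and 0.053.

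Phenanthrene has only fused benzene rings and lacks the further carbon ring that joins the naphthalene and benzene units of fluoranthene. Fluoranthene had 2 DEGs against phenanthrene (0.00915%), both lower, and 8 genes passed without the fold limit. cyp1a held 1381, 1415, 1197 and 1714 normalized reads in Fluoranthene, against 683, 1186, 651 and 238 in phenanthrene. The Fluoranthene libraries were all higher, though replicate 3 exceeded the highest phenanthrene library by little, and the difference of cyp1a was 1.25 with a 95% interval of 0.48 to 2.02 and an adjusted p of 0.22. The interval for cyp1c1 was -0.006 to 0.671 around a difference of 0.33, and for ahrra 0.45 to 1.55 around 1.00 (adjusted p 0.14), so neither passed. cyp51 was lower by 0.72 on the log2 scale (difference -0.72, 95% interval -0.99 to -0.45, adjusted p 0.0022), with 185, 178, 180 and 134 normalized reads in phenanthrene, all above the 85 to 111 of Fluoranthene. sqlea differed by -0.78 (adjusted p 0.011) and lss by -0.83 (adjusted p 0.092). A fit of only the groups of the comparison left no call, with 0 genes passing and an adjusted p of 0.15 for cyp51.

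The 2 DEGs of that pair rest on few reads. LOC795147 was at 0.94, 0, 5.31 and 1.34 normalized reads in Fluoranthene (difference from phenanthrene -2.26, adjusted p 0.046), and si.ch211-79h18.2 was at 5.16, 0.68, 0 and 0.67 (difference -1.83, adjusted p 0.016). LOC795147 lost its call without Fluoranthene replicates 1, 2 or 4 (adjusted p 0.15, 0.28 and 0.10) or phenanthrene replicates 1, 2 or 3 (0.097, 0.15 and 0.13). si.ch211-79h18.2 lost it without Fluoranthene replicates 2, 3 or 4 (0.081, 0.14 and 0.078) or phenanthrene replicate 1 (0.069).

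Acenaphthene is naphthalene with a short carbon bridge and without the benzene unit of fluoranthene. Fluoranthene had 15 DEGs against acenaphthene (0.0686%), 7 higher and 8 lower, of which only some are named here. Of 11 that were followed through the alternatives, 0 kept the call in all of them. With each library left out in turn, cyp1a, fkbp5, lss and cyp51 kept it. cyp1a held 1381, 1415, 1197 and 1714 normalized reads in Fluoranthene, against 269, 186, 170 and 616 in acenaphthene, and the groups were apart. The difference of cyp1a was 2.39 (95% interval 1.62 to 3.16, adjusted p 0.00015, limma), but a fit of only the groups of the comparison gave an adjusted p of 0.31 for cyp1a and 0 DEGs. ahrra differed by 1.38 (adjusted p 0.0070, or 0.076 without Fluoranthene replicate 1) and cyp1c2 by 0.80 (adjusted p 0.0065, or 0.053 without that library). cyp1c1 differed by 0.53 (95% interval 0.20 to 0.87) and did not pass.

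Among the genes that passed as lower against acenaphthene were cyp51, lss, sqlea, fads2 and fkbp5. cyp51 held 184, 212, 216 and 302 normalized reads in acenaphthene, all above Fluoranthene, a difference of -1.14 (95% interval -1.40 to -0.87, adjusted p 4.15e-08, limma). lss differed by -1.35 (adjusted p 0.00012) and sqlea by -0.70 (adjusted p 0.036). fads2, a desaturase of polyunsaturated fatty acids, held 20.6, 15, 14.6 and 6.69 normalized reads in Fluoranthene, against 31.3, 34.3, 24.2 and 64.3 in acenaphthene (difference -1.37, adjusted p 0.010), and its call was lost without Fluoranthene replicate 4 (0.14) or acenaphthene replicate 4 (0.091). fkbp5 differed by -2.18 (adjusted p 0.0038). In a fit of only the groups of this comparison 0 genes passed, so none of these calls held there. Over the 23 cholesterol genes, 4 passed as lower against BbF, 2 against phenanthrene and 4 against acenaphthene, with medians of -0.381, -0.344 and -0.433, and 0 passed as higher in any of these pairs. Over all 21854 genes, 30, 6 and 20 passed as lower in the same order, with medians of -0.005, 0.003 and 0.006. These 3 comparisons share the Fluoranthene libraries. In fits of only the groups of each comparison, 251 of all genes passed against BbF, 0 against phenanthrene and 0 against acenaphthene.

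3-NF and BkF share the fluoranthene ring system, with a nitro group in 3-NF and a further benzene ring in BkF. They were measured with different control groups, so each was set against its own and the difference of the log2 fold changes was tested. The pair had 32 DEGs (0.146%), 7 higher and 25 lower in 3-NF. cyp1a held 886, 446, 692 and 694 normalized reads in 3-NF, against 42272, 37710, 42127 and 35368 in BkF, and the difference of cyp1a was -6.10 (95% interval -7.23 to -4.97, adjusted p 1.53e-11, limma). cyp1c1 held 193, 178, 211 and 235 normalized reads in 3-NF, against 1845, 2445, 3041 and 2005 in BkF (difference -3.39, -3.89 to -2.89, adjusted p 2.67e-15). ahrra held 16.3 to 43.4 normalized reads in 3-NF, against 472, 471, 462 and 448 in BkF (difference -3.76, adjusted p 3.28e-09). In all 3 genes the BkF libraries were far above every 3-NF library.

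Among the genes linked to cyp1a in the study's network, 17 of 23 passed as lower and 1 as higher in this pair. Of all 21854 genes, 32 passed as lower and 10 as higher. The study chose the network genes on these samples, BkF included, so their direction here is not independent evidence. pkhd1l1.1, a large transmembrane protein, held 174, 118, 143 and 122 normalized reads in 3-NF, against 2158, 2334, 2528 and 1671 in BkF (difference -4.08, adjusted p 6.42e-15, limma). LOC110366352, which the RefSeq gene table lists with the synonym slincR, a long noncoding RNA that AHR2 induces, held 48.2, 34.3, 43.8 and 43.5 normalized reads in 3-NF, against 435, 414, 377 and 471 in BkF (difference -3.42, adjusted p 7.31e-08). Both were far lower in every 3-NF library. cyp1c2 and sult6b1 differed by -2.56 and -2.22. clcn2c, a chloride channel and the gene that was higher, had a difference of 1.65 with an adjusted p of 0.024 and lost its call without DMSO_A replicates 3 or 4 (0.051 and 0.099), 3-NF replicate 3 (0.054), DMSO_B replicates 1 or 2 (0.051 and 0.09) or BkF replicate 3 (0.09).

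The other higher genes with the largest differences in this pair were muc5.1, duox, and2 and krt4, which are genes of epithelia and of the fin fold. muc5.1, a gel-forming mucin, held 1073, 944, 973 and 993 normalized reads in 3-NF, against 380, 388, 438 and 480 in BkF, beside 884 to 1148 in DMSO_B and 853 to 1099 in DMSO_A. The 3-NF libraries of muc5.1 lay within or near the range of both control groups and the BkF libraries below it. The difference of muc5.1 was 1.17 (95% interval 0.80 to 1.55, adjusted p 0.00014, limma). and2, an actinodin of the fin fold, differed by 1.07 (adjusted p 0.00013), duox, an oxidase that makes hydrogen peroxide at epithelia, by 1.12 (adjusted p 0.0090) and krt4, a keratin of the outer skin layer, by 1.03 (adjusted p 0.017). The call of krt4 was lost without DMSO_A replicates 2 or 4 (0.082 and 0.051), 3-NF replicate 1 (0.056) or DMSO_B replicate 1 (0.056). For cyp51 the difference between 3-NF and BkF was 0.17 (95% interval -0.23 to 0.56), and 0 of the 23 cholesterol genes passed.

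**Figure D5:**
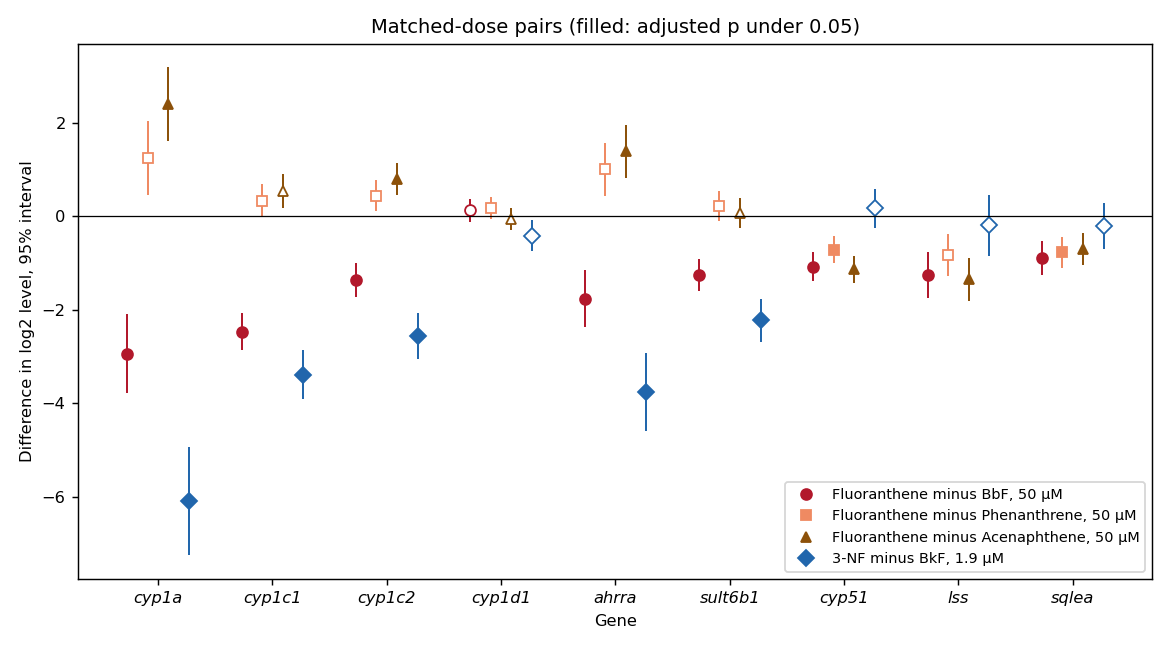
Difference in log2 level with its 95% interval (vertical axis) for 9 genes (horizontal axis) in the 4 pairs at matched concentration, Fluoranthene minus BbF, phenanthrene or acenaphthene at 50 µM and 3-NF minus BkF at 1.9 µM. Filled points passed the test; cyp1a runs from -6.10 for 3-NF minus BkF to 2.39 for Fluoranthene minus acenaphthene, and cyp51 is below 0 in the 3 pairs of Fluoranthene and at 0.17 in the pair of 3-NF.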

How the data were processed

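The authors aligned reads to GRCz11 with STAR, counted them per gene with HTSeq, dropped genes that many samples lacked, scaled libraries with DESeq2 and deposited log2 values after a variance stabilizing transformation. The transformation was inverted, which gave whole reads within 0.05 for 100% of 3715180 values. Gene symbols came from a RefSeq table (20411 of 21854 identifiers matched), and a colon in a symbol is written as a dot, or as _ before a final number. Columns of the authors' own comparisons were not used.

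Log2(normalized value + 1) of 70 libraries in 18 groups of one study was fitted with limma 3.58.1 (trend) in R 4.3.3, two-sided, with Benjamini-Hochberg adjustment per comparison and over the 4 pairs together. Fold changes are on this scale and understate changes of low genes. The planned unit was normalized values, so the deposited log2 values served as an alternative. Limma with voom weights on recovered reads was a further one. TCDD was fitted in its own study. Tested on simulated data for Fluoranthene against DMSO_A (21854 genes), 200 of 200 genes with an absolute log2 fold change of 2 were recovered and 6 unchanged genes were called. The simulated spread was assumed, changed genes were drawn only from those above a set mean level, and the control groups did not differ. The simulation therefore does not cover smaller changes, genes with few reads or differences between DMSO_A and DMSO_B.

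The members and gene lists were chosen with earlier results of these data known. Genes were named by rule: all DEGs, or the 10 genes with the smallest p where there were under 10, and members of the lists. For the pairs the rule took the 5 higher and 5 lower DEGs with the largest difference. For acenaphthene only some of these are named. Replicate numbers were not used to pair the libraries in the main fit.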

Additional observations from a re-analysis of the deposited data

Results flagged for a closer look

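In 4 of 86 sets of a named gene and a group, 1 library lay far from the rest by Dixon's test, where chance gives about 5%. Fluoranthene replicate 3 was the high library for bicdl2l (81.6 normalized reads, the others 38.2 to 40.2) and for ankrd9 (63 normalized reads, the others 40.3 to 44.2), which are both lower in Fluoranthene than in DMSO_A. 3-NF replicate 4 was high for sult6b1 (702 normalized reads, the others 438 to 475). Fluoranthene replicate 1 was high for si.ch211-79h18.2 (5.16 normalized reads, the others 0 to 0.68), a gene with few reads. Their cause was not tested.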

How the results depend on the processing

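The number of Fluoranthene DEGs, 22 in the main analysis, was 13 with the deposited log2 values and 14 in a fit of only the groups of the comparison, and 11 to 22 with 1 library left out (11 without Fluoranthene replicate 1 and 12 without DMSO_A replicate 2 or replicate 3). With DMSO_B as the control 17 genes were DEGs, of which 6 were among the 22. These 6 were cyp1a, ahrra, lss, rgs2, ankrd9 and dhrs13a.2. For 3-NF, 0 DEGs became 1 in a fit of only the groups of the comparison, 32 with DMSO_A as the control, 6 with both control groups pooled, and 0 to 1 with 1 library left out (1 without 3-NF replicate 3). Fluoranthene against BbF, 30 DEGs, gave 65 with the replicate block, 99 in a fit of only the groups of the comparison, 19 with voom weights and 17 to 67 with 1 library left out (67 without BbF replicate 1). Fluoranthene against phenanthrene, 2 DEGs, gave 0 with a pseudocount of 5, 0 with the filter on low values, 1 with the deposited log2 values, 5 with lane as a covariate, 0 in a fit of only the groups of the comparison, 0 with voom weights and 0 to 5 with 1 library left out. Fluoranthene against acenaphthene, 15 DEGs, gave 0 in a fit of only the groups of the comparison and 7 to 78 with 1 library left out (78 without acenaphthene replicate 2 and 7 without replicate 4). 3-NF against BkF, 32 DEGs, gave 61 when the libraries were compared directly and 24 to 32 with 1 library left out. The cause of these differences was not tested.

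In Fluoranthene klf9 and pfkfb4b were above 0 with DMSO_B as the control, with log2 fold changes of 0.42 and 0.04. Over all alternatives, 279 results for a named gene of Fluoranthene kept their side of the threshold and 114 lost the call, and in 3-NF 227 kept it and 19 passed. Libraries of each compound and of its control group with the same replicate number did not deviate together (correlations -0.0268 to 0.0896), and the replicate block gave 20 DEGs in Fluoranthene. Such correlations were not computed for the 4 pairs. Groups held 3 or 4 libraries, and genes such as si.dkey-23n7.10 and si.ch211-79h18.2 rest on few reads.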
